A study of Mus musculus with 30 samples.

Results

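Myc and its MAX network were followed at the transcript level in B cells and leukaemic cells of mice that carry a mutation in Ikzf3. The 10 genes were taken by name, for their place in the network (Myc, Mycn, Max, Mxd1, Mxd3, Mxd4, Mxi1, Mnt, Mga and Mlx), and all 10 are listed in both deposited expression tables, among 22781 named genes in the aged table and 26266 in the young one. The mutation, Ikzf3 L161R, is a conditional knock-in whose expression is restricted to B cells; its product, Aiolos, is a DNA-binding zinc finger protein of the Ikaros family found in lymphocytes. The series has 30 samples, and the 18 RNA-seq libraries of C57BL/6 spleen used here form 5 groups. Young homozygous B cells (Ikzf3 fl/fl, n = 3) and young wild-type B cells (n = 3) come from mice of 2 to 3 months. At 15 to 18 months there are CLL cells (n = 5, sorted for B220 and CD5 from leukaemic mutant mice; libraries 1, 2, 4 and 5 Ikzf3 fl/+, library 6 Ikzf3 fl/fl), non-CLL B cells of the same mutant mice (n = 4; libraries 2, 4 and 5 Ikzf3 fl/+, library 6 Ikzf3 fl/fl) and wild-type B cells (n = 3). Chronic lymphocytic leukaemia (CLL) is a cancer of mature B cells that carry the T cell antigen CD5. The Cre line that activates the allele is not given in the sources used here, nor whether each young library comes from its own mouse, so that p-values measure only the spread between these libraries.

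MYC is a transcription factor that binds DNA only as a pair with MAX, most strongly at the E-box CACGTG, and drives ribosome production, metabolism and growth; in resting B cells it is low, and antigen receptor signals induce it. MAX has other partners that occupy the same sites without activating: the MXD proteins (MXD1, MXD3, MXD4 and MXI1) and MNT bring in the SIN3 and histone deacetylase corepressors, and MGA holds a Polycomb complex called PRC1.6. MLX is a parallel to MAX that pairs with some MXD proteins, with MNT and with the glucose-sensing factors MLXIP and MLXIPL.

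All values are TPM, a share of all transcripts corrected for gene length, so the number of reads behind each is unknown and levels of different genes can be set side by side only within 1 table. Libraries differed in background, taken as the median of the olfactory receptor genes, which B cells are not known to use. It was 1.08 to 9.66 TPM in CLL libraries (highest in library 6), 7.16 to 9.24 TPM in non-CLL libraries and 0 to 0.745 TPM in aged wild-type libraries, and 0 in every young library. B cell markers summed to at least 4797 TPM in each library. Cd5, used in the sort, was at 16.3 to 36.1 TPM in CLL libraries, at 5.54 to 11.2 TPM in non-CLL libraries, which is about their background, and at 0.377 to 1.16 TPM in aged wild-type libraries. Some libraries stand apart. Xist, which female cells transcribe, is at 80.9 and 63.1 TPM in young wild-type libraries 1 and 2, whereas young wild-type library 3 and all young homozygous libraries hold the Y-linked Ddx3y. Aged wild-type library 2 holds both, and Xist is at 4.104 TPM in CLL library 4, against 61.0 TPM in the non-CLL library of the same number. Plasmacytoid dendritic cell markers summed to 262 to 1200 TPM in non-CLL libraries, against 11.7 to 58.5 TPM in CLL libraries. In aged wild-type library 2 that sum was 248 TPM, and 4.68 and 11.5 TPM in the other wild-type libraries. Natural killer cell markers summed to 10.9 to 62.0 TPM in CLL libraries, 144 to 746 TPM in non-CLL libraries and 2.44 to 28.6 TPM in aged wild-type libraries. Their part in the comparisons with non-CLL B cells was not tested. In bulk RNA, fewer cells of a type and less RNA per cell cannot be told apart.

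Each comparison was fitted across all expressed genes with limma on log2(TPM + 1), and a gene is called at an adjusted p (Benjamini-Hochberg) under 0.05. In young homozygous against wild-type B cells, 9 of the 10 genes were expressed highly enough to be tested; 4 were called higher and 1 lower, where 38.4% of all 12219 tested genes were called higher and 12.6% lower (51% either way). Their count is thus near that of all genes. In aged CLL cells against wild-type, 1 of 9 tested genes, Myc, was called higher and 0 lower, where 2.94% of genes were called higher and 0.604% lower (3.54% either way). In CLL cells against non-CLL B cells, Myc alone of 10 was called, again higher, where 0.744% of genes were called higher and 5.02% lower (5.77% either way). In non-CLL B cells against wild-type, 1 of 10, Mycn, was called higher, where 55.8% of genes were called higher and 1.48% lower (57.3% either way). In each of the aged comparisons 0 of the network's genes tested by limma had a negative change at an unadjusted p under 0.05. CLL cells and non-CLL B cells share their wild-type libraries in these comparisons. The split of all calls depends on the scaling. In the young comparison 75.3% of called genes were higher, but 49.8% after median-of-ratios rescaling, after which the median over all genes was -0.02, against 0.18 without it. Under quantile normalization the share was 55.1% in the young comparison. In the order above, the aged comparisons had 82.96%, 12.9% and 97.4% of their calls higher and medians of 0.93, -0.77 and 1.65, and under quantile normalization 40.7%, 44.9% and 38.5% of far fewer calls, with medians between -0.05 and -0.01.

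Myc (chromosome 15, 61985341 to 61990361 in GRCm38.p6, the assembly of mm10), the activator of the network, was the gene of the 10 with the largest log2 change in young B cells and in both comparisons of CLL cells. In the young homozygous libraries it stood at 240, 226 and 198 TPM, against 63.7, 65.2 and 74.5 TPM in the young wild-type libraries. The groups lie far apart and are tight, with means of 221 ± 21.6 TPM for homozygous and 67.8 ± 5.83 TPM for wild-type libraries (SD, n = 3 each), and the lowest homozygous value is well above the highest wild-type one. Groups failed to overlap for 61.4% of all genes in the young comparison. The log2 change was 1.69 (SE 0.10, adjusted p = 1.45e-05), a 3.23-fold difference. Against wild-type library 3 alone, the wild-type library that shares Ddx3y with the homozygous ones, the log2 change was 1.55. That library holds the least Lyz2 of the wild-type libraries, at 222 TPM, against 58.2 to 163 TPM in homozygous ones. Its S100a8, another myeloid marker, was at 381 TPM, against 12.2 to 59.1 TPM in homozygous libraries. Wild-type library 3 is thus not matched to them in myeloid RNA.

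**Figure D1:**
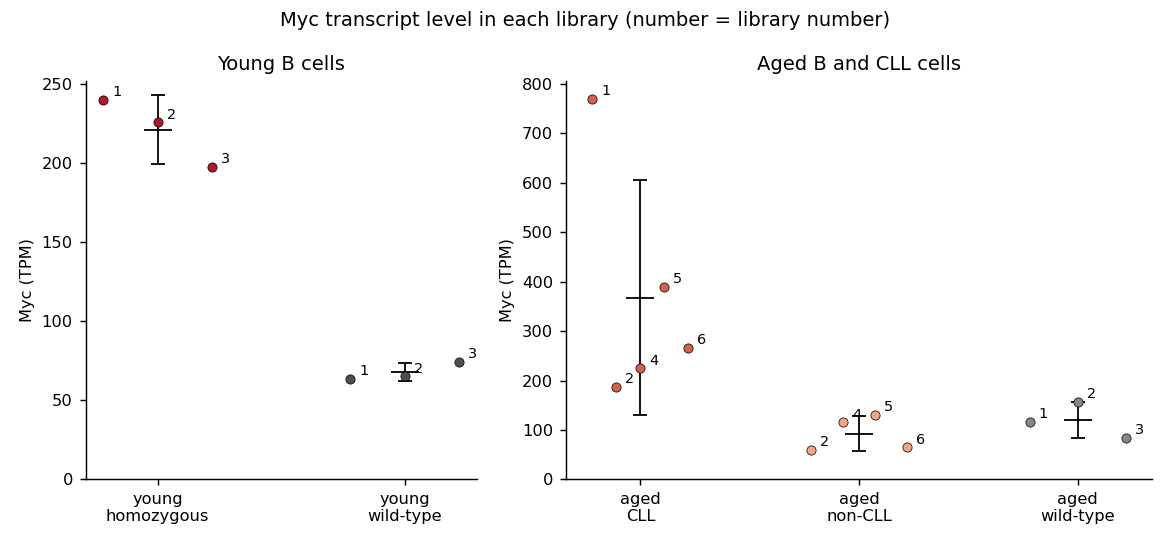
Myc level in TPM (vertical axes, from 0) in each library of the young table (left) and the aged table (right), with the library number beside each point and bars for the mean ± SD of the group. The 3 young homozygous libraries lie between 198 and 240 TPM, and every CLL library, from 187 to 770 TPM, lies above every non-CLL and aged wild-type library.

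Among aged libraries Myc was at 770, 187, 225, 389 and 266 TPM in CLL libraries 1, 2, 4, 5 and 6. In non-CLL libraries 2, 4, 5 and 6 it was at 60.3, 115, 131 and 64.8 TPM, and in aged wild-type libraries 1, 2 and 3 at 116, 157 and 84.7 TPM. Every CLL library exceeded every library of the other groups, and the non-CLL and wild-type libraries overlapped. CLL cells thus averaged 368 ± 238 TPM (n = 5), non-CLL B cells 92.7 ± 35.5 TPM (n = 4) and wild-type B cells 119 ± 36.4 TPM (n = 3). The log2 change of CLL cells against wild-type was 1.46 (SE 0.37, adjusted p = 0.0309), and groups failed to overlap for 31.5% of all genes there. The call ended without aged wild-type library 3 (adjusted p = 0.066), at a minimum of 20 TPM (0.0985), under quantile normalization (0.148), with neither trend nor robust estimation (0.0588) and after background subtraction (0.122), at log2 changes from 1.24 to 1.51. Against non-CLL B cells the log2 change was 1.86 (SE 0.37, adjusted p = 0.0131), where groups failed to overlap for 8.68% of genes, and the call ended under quantile normalization (adjusted p = 0.0586) and with neither trend nor robust estimation (0.0558). Between non-CLL B cells and wild-type the log2 change was -0.40 (95% interval -1.14 to 0.35, adjusted p = 0.347), so neither a rise nor a fall was called there.

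The design text says that non-CLL B cells came from the mice with CLL. Libraries with the same number have the same genotype, but no label states the match for each number. Xist differs between the libraries numbered 4. Taken by number, CLL libraries 2, 4, 5 and 6 held 3.11, 1.95, 2.98 and 4.11 times the Myc level of their non-CLL partners, higher in 4 of 4 and, leaving out number 4, in 3 of 3. Numbers 2, 4 and 5 are heterozygous and number 6 homozygous, so both genotypes show it. Without CLL library 4 the unpaired log2 change was 1.99 (adjusted p = 0.0181), and without non-CLL library 4 it was 1.99 (adjusted p = 0.0125). With the number as a block the log2 change was 1.54 (adjusted p = 0.00415), over the 4 numbers that have both libraries; CLL library 1, the highest, has no partner. This block moved the number of genes called in all to 697, against 1287 without it.

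Mycn (chromosome 12), the neuronal relative of Myc that is expressed mainly in embryos, was nearly silent. It was at 0, 0.0435 and 0.130 TPM in young homozygous libraries and at 0.0545, 0.0542 and 0 TPM in young wild-type libraries, too low to be tested. Aged cells held 0.235 to 2.34 TPM in CLL libraries, at 4.71, 2.52, 3.04 and 0 TPM in non-CLL libraries 2, 4, 5 and 6, and at 0, 0.0777 and 0 TPM in wild-type libraries. Its call in non-CLL B cells against wild-type (log2 change 1.55, adjusted p = 0.0399) rests on values under the median olfactory receptor gene of each of those libraries. The call was lost without any 1 of the wild-type libraries (adjusted p between 0.104 and 0.122) and turned to a log2 change of -0.27 (adjusted p = 0.67) under quantile normalization. Leaving out non-CLL library 2, 4 or 5 left Mycn too low to be tested.

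Relatives of Myc outside the 10 genes were also read. Pvt1, a long noncoding RNA gene next to Myc (chromosome 15, 62037986 to 62260215), was at 9.97, 7.49 and 9.84 TPM in young homozygous libraries, against 4.68, 4.79 and 4.84 TPM in wild-type libraries (log2 change 0.80, SE 0.13, adjusted p = 0.00166). In CLL libraries it was at 45.4 to 67.6 TPM, against 20.7 to 26.97 TPM in non-CLL libraries, with no overlap (as for 8.68% of all genes) and higher in 4 of 4 numbered pairs (log2 change 1.13, SE 0.29, adjusted p = 0.0296). That call ended when any 1 of 6 of the 9 libraries was left out: CLL library 4 or 5 or any of the 4 non-CLL libraries (adjusted p between 0.0519 and 0.0745), and with neither trend nor robust estimation (0.0558). Aged wild-type libraries held 18.6, 44.5 and 15.6 TPM, of which library 2 reaches near the CLL range (CLL against wild-type, log2 change 1.11, adjusted p = 0.0542). Pvt1 and Myc were thus both called higher in young homozygous cells than in young wild-type cells, and in CLL cells than in non-CLL B cells.

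Mycl, another MYC family gene, which dendritic cells use, ran the other way. It was at 2.01, 6.38, 2.97, 0.929 and 7.37 TPM in CLL libraries and at 18.2, 39.7, 9.36 and 41.6 TPM in non-CLL libraries (log2 change -2.50, SE 0.53, adjusted p = 0.00885). In aged wild-type libraries it was at 1.28, 19.6 and 7.42 TPM. Every non-CLL library exceeds every CLL library, and the wild-type libraries span both. Groups failed to overlap for 8.68% of all genes between CLL and non-CLL cells, where all genes had a median log2 change of -0.77. Some Mycl values lie at the background. Non-CLL library 5 (9.36 TPM) is under the 95th percentile of its olfactory receptor genes (13.9 TPM), and CLL library 6 (7.37 TPM) is under their median (9.66 TPM). The dendritic marker Siglech was at 298, 288, 137 and 784 TPM in the same non-CLL libraries, against 1.32 to 18.1 TPM in CLL libraries, and at 0, 126 and 1.89 TPM in wild-type libraries. Among non-CLL and among aged wild-type libraries, the one with the least Siglech has the least Mycl and the one with the most has the most; among CLL libraries the least of each falls in different libraries. The part of these cells in the Mycl values was not tested.

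Max (chromosome 12, 76937269 to 76962323), the shared partner, was among the most abundant of the 10 genes in every group and first in 3 of the 5. It was at 112, 132 and 137 TPM in young homozygous libraries and at 92.3, 99.8 and 102 TPM in young wild-type libraries. The groups did not overlap, which held for 61.4% of all genes. The difference is small, with a log2 change of 0.36 (SE 0.09, adjusted p = 0.0114) where all genes had a median of 0.18. It was not called without young wild-type library 1 (adjusted p = 0.0506) or young homozygous library 3 (0.053), nor after median-of-ratios rescaling (log2 change 0.14, adjusted p = 0.14) or quantile normalization (0.0645), nor against wild-type library 3 alone (0.145). In aged cells Max was at 240, 253, 183, 179 and 126 TPM in CLL libraries, at 210, 183, 263 and 142 TPM in non-CLL libraries, and at 291, 318 and 208 TPM in wild-type libraries. The 3 groups overlap, and no call was made: the log2 change was -0.49 for CLL cells against wild-type (95% interval -1.12 to 0.13, adjusted p = 0.211) and -0.03 against non-CLL B cells (95% interval -0.60 to 0.53, adjusted p = 0.933). Where Myc was higher in CLL cells than in non-CLL B cells, Max was thus not called, and its interval leaves room for a change of about 0.6 in log2 either way.

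Mlx (chromosome 11, 101086707 to 101092207), the parallel of Max, varied little among the young libraries, at 50.8, 53.8 and 52.1 TPM in homozygous libraries and 47.3, 48.2 and 48.8 TPM in wild-type libraries (log2 change 0.12, SE 0.07, adjusted p = 0.189). Its groups do not overlap, which held for 61.4% of all genes in the young comparison. Aged levels ranged from 20.9 to 33.5 TPM in CLL libraries, 18.1 to 30.0 TPM in non-CLL libraries and 15.0 to 24.1 TPM in wild-type libraries, with no call. Its partner Mlxip, also called MondoA, did differ in young cells. Mlxip was at 85.0, 108 and 106 TPM in homozygous libraries and 39.5, 35.0 and 48.7 TPM in wild-type libraries, without overlap (log2 change 1.26, SE 0.14, adjusted p = 0.000398). In aged cells the Mlxip level was 27.1 ± 7.10 TPM for CLL cells (n = 5), 34.1 ± 8.74 TPM for non-CLL B cells (n = 4) and 32.4 ± 11.1 TPM for wild-type B cells (n = 3), and it was not called in any of the 3 aged comparisons. Mlxipl, which encodes ChREBP, stayed under the background of each non-CLL library.

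Promoters of 4 of the 9 genes that have a promoter listed carry the E-box that these proteins recognise. Myc itself has none listed, so its promoter was not read. RefSeq's table for GRCm38.p6 gives promoters of 300 bases (250 before to 50 after the start) for 9 of the genes, and Max, Mxd4, Mnt and Mlx hold CACGTG, which reads the same on both strands; 7.15% of all 32851 promoters in the table hold it. The 60 bases around each match are printed because they show sites at which the network's own proteins could bind in the network's own genes, with the E-box in capitals and each sequence 5′ to 3′ on the strand of its gene.
Max (chr12:76962219-76962278, minus strand): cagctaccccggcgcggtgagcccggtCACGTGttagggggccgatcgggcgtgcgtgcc
Mxd4 (chr5:34187897-34187956, minus strand): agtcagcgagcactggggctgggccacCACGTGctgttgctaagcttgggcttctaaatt
Mnt (chr11:74830774-74830833, plus strand): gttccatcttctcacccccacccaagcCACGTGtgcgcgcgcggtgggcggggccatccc
Mlx (chr11:101087223-101087282, plus strand): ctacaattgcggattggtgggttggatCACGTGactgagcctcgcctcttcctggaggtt
Counted from the start used for each promoter, the E-box begins 3 bases before it in Max, 40 in Mlx, 123 in Mnt and 219 in Mxd4. Of these genes Max and Mnt were called higher in young homozygous cells, though not after rescaling, and Mlx and Mxd4 were called higher only with library weights (adjusted p = 0.0291 and 0.00684) or, for Mxd4, without homozygous library 1. Mga and Mxd3, called higher and lower, have no CACGTG in this window. The start used for a promoter need not be the first base of the gene. The windows of Mlx (101087040 to 101087339) and Mga (119896978 to 119897277) lie inside the gene spans given for them. A match is only a sequence, and occupancy was not measured here. The core GGGAA, to which Ikaros family proteins such as Aiolos bind, stands on either strand in 5 of the 9 genes, and in 62.7% of all promoters.

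Mnt (chromosome 11, 74830806 to 74845725), the antagonist that is present in both resting and dividing cells, was at 25.4, 24.6 and 26.1 TPM in young homozygous libraries, against 19.4, 17.3 and 19.4 TPM in wild-type libraries. The groups are narrow (log2 change 0.42, SE 0.09, adjusted p = 0.00376). They do not overlap, which held for 61.4% of all genes. After median-of-ratios rescaling the change was 0.21 and no longer called (adjusted p = 0.0515), and without wild-type libraries 1 and 2 it was 0.37 (adjusted p = 0.0671). Aged levels of Mnt were 29.9, 14.4, 20.97, 28.6 and 26.7 TPM in CLL libraries, at 23.9, 23.5, 27.9 and 17.2 TPM in non-CLL libraries and at 12.9, 12.2 and 14.8 TPM in wild-type libraries. Non-CLL libraries all exceed the wild-type libraries, as did 56% of genes in 1 direction or the other, but the difference was not called (log2 change 0.74, SE 0.30, adjusted p = 0.0525). After subtraction of each library's background that change was 0.12 (adjusted p = 0.893), although it was called without non-CLL library 6 (adjusted p = 0.0332), after rescaling (0.0411), with library weights (0.01) and with neither trend nor robust estimation (0.046). Between CLL and wild-type cells the log2 change was 0.77 (95% interval -0.06 to 1.61, adjusted p = 0.136), and CLL library 2 lies within the wild-type range.

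Mga (chromosome 2, 119872503 to 119970129), the large scaffold that recruits PRC1.6, had the second largest rise of the 10 genes in young cells. It was at 34.2, 41.7 and 43.6 TPM in homozygous libraries, against 22.6, 21.9 and 25.9 TPM in wild-type libraries, without overlap, as for 61.4% of all genes. The log2 change was 0.74 (SE 0.11, adjusted p = 0.00108), or 0.55 above the median of all genes, and, like that of Myc, its call held in all 15 alternative settings tried. In aged cells Mga was at 47.4, 65.1, 84.1, 94.9 and 84.6 TPM in CLL libraries, at 71.7, 69.1, 62.3 and 80.9 TPM in non-CLL libraries and at 89.6, 51.9 and 73.5 TPM in wild-type libraries. These ranges cover each other, and the log2 changes were 0.06 for CLL cells against wild-type (adjusted p = 0.902) and 0.05 against non-CLL B cells (adjusted p = 0.908). Its sign turned under several settings.

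**Figure D2:**
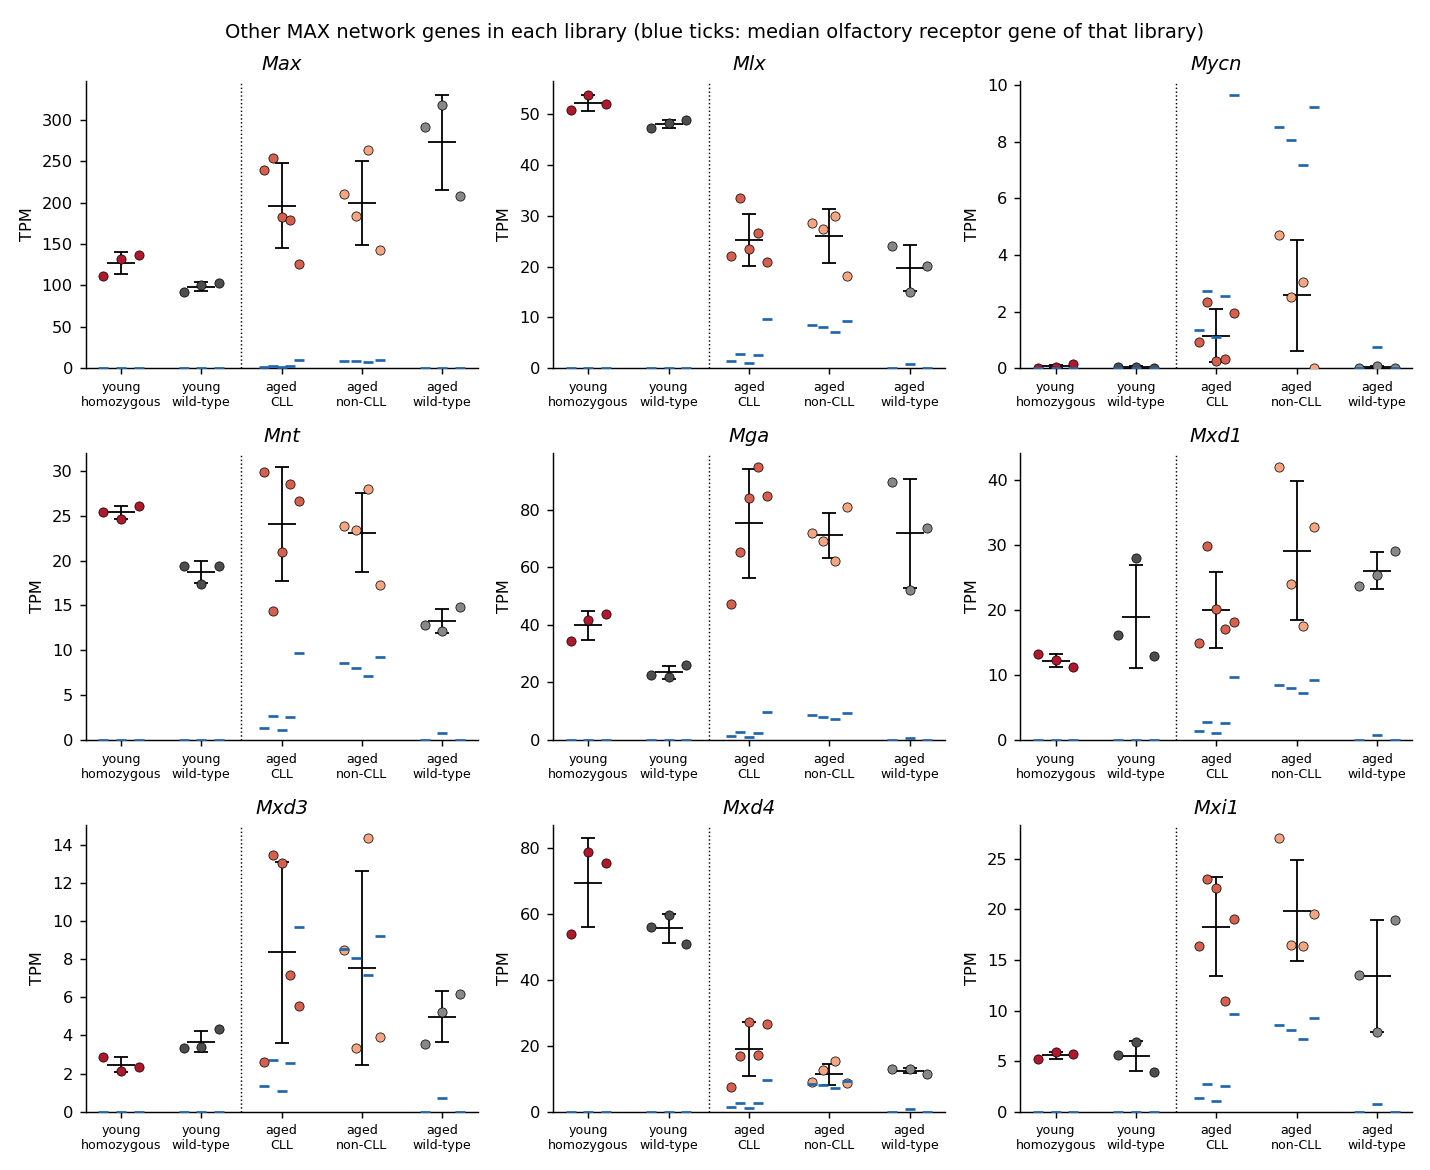
TPM (vertical axes, from 0) of the 9 genes other than Myc in each library, with bars for the mean ± SD of each group; blue ticks mark the median olfactory receptor gene of the same library, and the dotted line parts the young table from the aged one. Max, Mnt and Mga of young homozygous cells lie above wild-type, and in aged cells Mycn lies under the tick in every CLL and non-CLL library, while Max and Mga lie far above them.

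Mxd1 (chromosome 6, 86647044 to 86669234), the MXD protein that rises when cells stop dividing and differentiate, was at 13.2, 12.2 and 11.2 TPM in young homozygous libraries and at 16.1, 28.0 and 12.9 TPM in young wild-type libraries. The groups overlap through wild-type library 3, and no call was made (log2 change -0.53, SE 0.27, adjusted p = 0.142); without that library it was called lower (adjusted p = 0.0285). Wild-type library 2, the highest in Mxd1, also holds the most myeloid RNA, with the macrophage gene Lyz2 at 2330 TPM and the 10 myeloid markers summing to 5116 TPM, against 1361 to 2491 TPM in the other wild-type libraries and 150 to 388 TPM in homozygous ones. The part of myeloid RNA in this difference was not tested. In aged cells Mxd1 was at 14.9, 29.9, 20.2, 17.1 and 18.1 TPM in CLL libraries, at 42.1, 24.0, 17.6 and 32.8 TPM in non-CLL libraries and at 23.7, 25.4 and 29.2 TPM in wild-type libraries. It was lower in the CLL library than in the non-CLL library of the same number in 4 of 4 pairs, at 0.553 to 0.973 times the level, but the group difference was not called (log2 change -0.49, 95% interval -1.19 to 0.22, adjusted p = 0.284).

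Mxd3, Mxd4 and Mxi1 are the remaining MXD genes. Mxd3 (chromosome 13), which is expressed in proliferating cells, was at 2.89, 2.13 and 2.35 TPM in young homozygous libraries and at 3.33, 3.39 and 4.32 TPM in young wild-type libraries. It was the only one of the 10 genes called lower (log2 change -0.44, SE 0.16, adjusted p = 0.045), and the call was lost when any 1 library other than homozygous library 1 was left out (adjusted p between 0.0715 and 0.139). Mxd4 (chromosome 5), which is expressed in resting cells, was the most abundant antagonist of young B cells, at 53.9, 78.7 and 75.4 TPM in homozygous libraries and 56.0, 59.7 and 50.8 TPM in wild-type libraries (log2 change 0.30, SE 0.14, adjusted p = 0.114); without homozygous library 1 it was called higher (adjusted p = 0.00595). Mxi1 (chromosome 19) was at 5.22 to 5.85 TPM in homozygous libraries and 3.92 to 6.86 TPM in wild-type libraries (log2 change 0.05, adjusted p = 0.83). None of the 3 was called in any aged comparison. Mxd4 was at 7.41, 16.8, 27.1, 17.2 and 26.7 TPM in CLL libraries, at 8.89, 12.5, 15.3 and 8.65 TPM in non-CLL libraries and at 12.9, 12.9 and 11.5 TPM in wild-type libraries. In non-CLL libraries 2, 4 and 6 Mxd4 is not above the 95th percentile of the olfactory receptor genes, so no ratio to its level in CLL cells is given. CLL library 1 was the lowest of all 12 aged libraries. Mxd3 and Mxi1 spanned 2.62 to 14.3 TPM and 7.88 to 27.02 TPM over the aged libraries, and in several CLL and non-CLL libraries Mxd3 lay at or near the background.

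**Figure D3:**
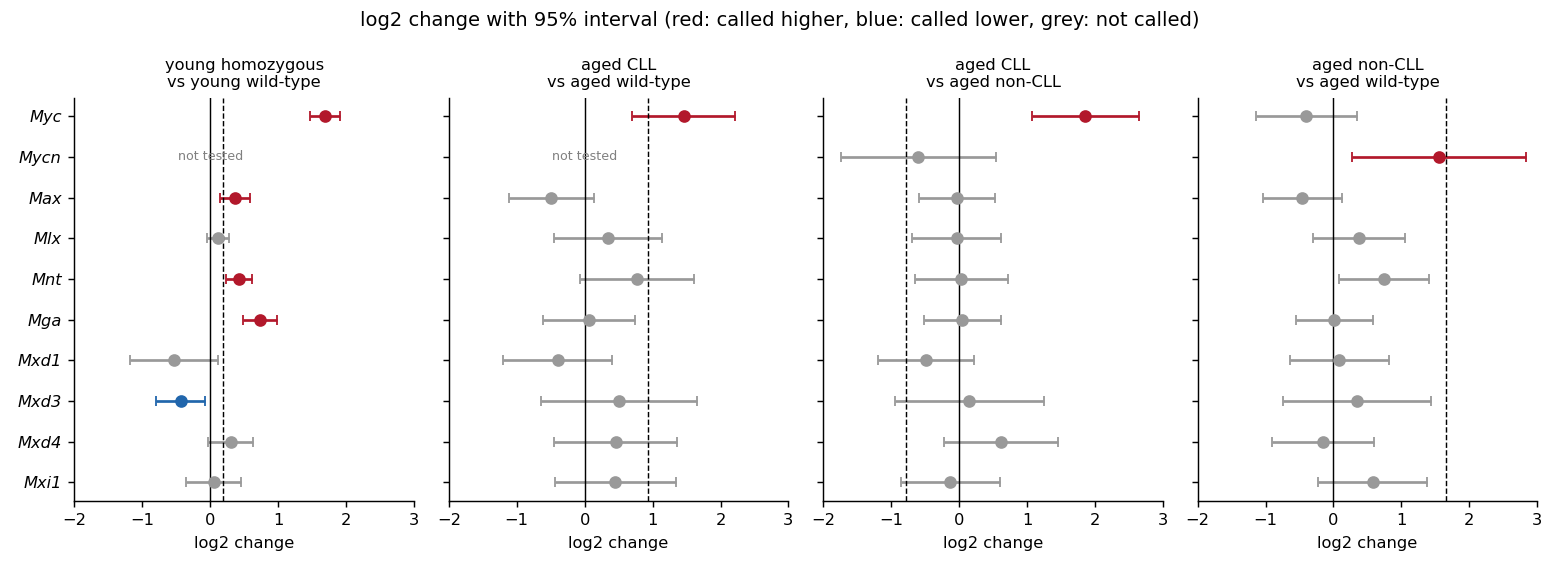
log2 change in TPM + 1 (horizontal axes) with its 95% interval for each of the 10 genes in the 4 comparisons; solid lines mark 0 and dashed lines the median of all genes tested. Myc is called higher in young homozygous cells and in both comparisons of CLL cells. For each gene tested in young cells the intervals of the aged comparisons are wider than the young one, for Mxd1 only slightly.

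The balance of the network can be read as the level of Myc relative to its partner and to the summed level of its antagonists (Mxd1, Mxd3, Mxd4, Mxi1, Mnt and Mga). These ratios are of transcripts and are given as a description, with no test. Myc over Max was 1.44 to 2.15 in young homozygous libraries and 0.653 to 0.727 in young wild-type libraries. Among aged libraries it was 0.740 to 3.22 in CLL libraries, 0.287 to 0.628 in non-CLL libraries and 0.399 to 0.494 in wild-type libraries. Myc outnumbered Max in all young homozygous libraries and in none of the young wild-type, non-CLL or aged wild-type libraries. Myc over the antagonist sum was 1.78, 1.37 and 1.20 in young homozygous libraries and 0.518, 0.475 and 0.636 in young wild-type libraries. It was 6.50, 1.15, 1.20, 2.21 and 1.47 in CLL libraries, 0.331 to 0.850 in non-CLL libraries and 0.746, 1.36 and 0.550 in aged wild-type libraries. CLL libraries thus lie above non-CLL libraries without overlap, while aged wild-type library 2 lies within the CLL range.

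The antagonist sum was 155 ± 17.3 TPM in young homozygous and 126 ± 10.3 TPM in young wild-type cells, and at 165 ± 27.6 TPM for CLL, 162 ± 14.6 TPM for non-CLL and 142 ± 22.9 TPM for aged wild-type libraries. With each library's background subtracted from each gene the sums were 145 ± 27.7 TPM for CLL, 115 ± 11.1 TPM for non-CLL and 140 ± 25.5 TPM for aged wild-type libraries. The place of non-CLL B cells in this order thus depends on the background. The makeup of the sum varied. In young cells Mxd4 gave the largest share, 39.95% to 47.6% in homozygous and 43.4% to 45.5% in wild-type libraries, and Mga 25.2% to 26.6% in homozygous and 15.97% to 22.1% in wild-type libraries. In aged cells Mga gave the largest share, 39.96% to 53.9% in CLL libraries, 39.4% to 49.6% in non-CLL libraries and 44.9% to 57.4% in wild-type libraries, and Mxd4 at most 14.8%. The tables were made separately, so a difference between young and aged libraries cannot be told apart from one between tables.

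**Figure D4:**
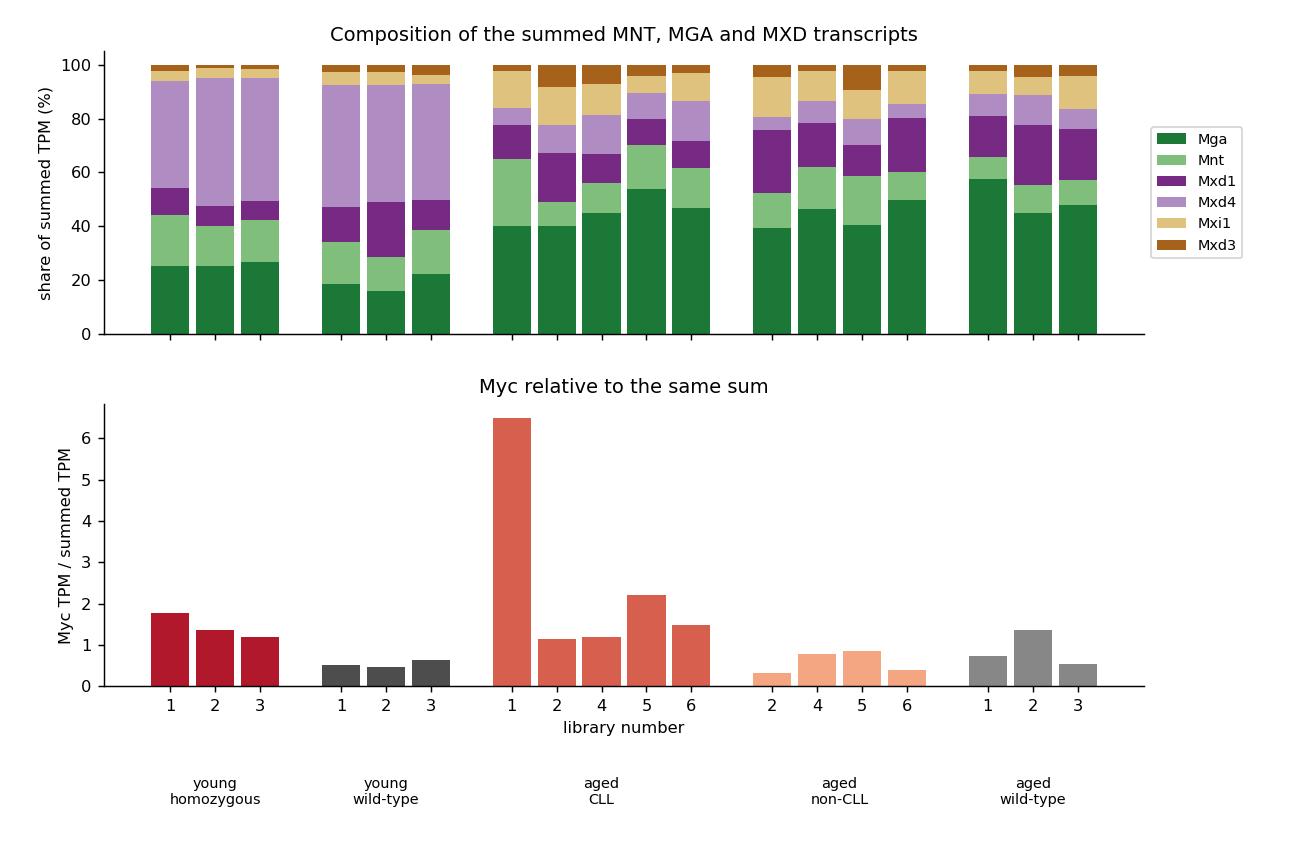
Top, share of each antagonist in their summed TPM (percent) in each library; bottom, Myc TPM divided by that sum. Mxd4 is the largest band in young libraries and Mga in aged ones, and the ratio is 6.50 in CLL library 1 and between 1.15 and 2.21 in the other CLL libraries.

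In the aged libraries Mxd1 and Myc stood in opposite order, a pattern chosen after the values were seen. Among the 5 CLL libraries, all 10 of the 10 pairs of libraries had the higher Mxd1 where Myc was lower, running from library 2 (Myc 187, Mxd1 29.9 TPM) to library 1 (Myc 770, Mxd1 14.9 TPM). Among non-CLL libraries 6 of 6 pairs did so, and 2 of 3 pairs in aged wild-type, 2 of 3 in young wild-type and 0 of 3 in young homozygous libraries. Pearson's r over the 12 aged libraries was -0.83 on log2(TPM + 1), and -0.81 with each group's mean removed; 80 of 6781 genes with a mean of at least 20 TPM had a lower r with Myc. The points share mice and tables, so these are descriptions. No background was subtracted from these values. CLL library 6 had Mxd1 at 18.1 TPM, where its olfactory receptor genes had a median of 9.66 TPM and a 95th percentile of 18.0 TPM. Its place in the CLL order thus depends on the background. CLL library 2, the lowest CLL library in Myc and the highest in Mxd1, also has the highest sum of myeloid markers, at 2925 TPM with Lyz2 at 656 TPM, against 60.2 to 269 TPM in the other CLL libraries. B cell markers summed to 13325 and 11575 TPM in CLL libraries 1 and 5, which hold the most Myc and the least Mxd1. In the other CLL libraries that sum was 8002 to 9042 TPM. The part of either in the order was not tested.

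**Figure D5:**
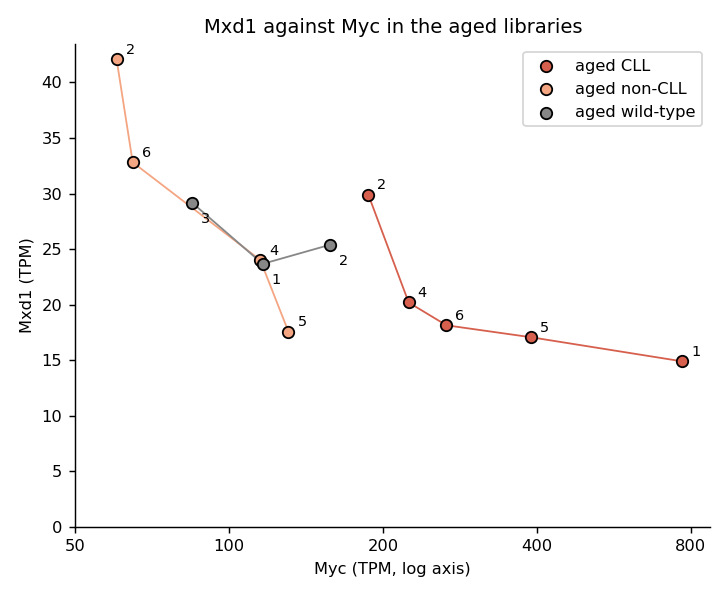
Mxd1 (TPM, vertical axis) against Myc (TPM, horizontal log axis) in each aged library, with lines joining the libraries of a group in the order of Myc and the library number beside each point. The CLL and non-CLL lines fall throughout, and CLL libraries lie to the right of the non-CLL ones at similar Mxd1.

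Genes whose pattern was most like that of Myc over the 12 aged libraries, among those with a mean of at least 20 TPM, were Tsr1 (r = 0.916), Txn2 (0.911), Hspa14 (0.905), Atl2 (0.898) and Mdh1 (0.895). Tsr1, a factor of ribosome assembly, averaged 94.03 ± 31.7 TPM over the CLL libraries, 50.1 ± 8.84 TPM over the non-CLL libraries and 55.2 ± 13.5 TPM over the wild-type libraries. Mdh1, the cytosolic malate dehydrogenase, averaged 595 ± 230 TPM over CLL, 248 ± 86.2 TPM over non-CLL and 267 ± 34.7 TPM over wild-type libraries. Over the 6 young libraries they were Tagap, Pmaip1, Pomgnt1, Mtx1 and Cdk5, each with r of at least 0.997, where the gap between the 2 groups sets most of r. Pmaip1, which encodes the cell death protein NOXA, averaged 113 ± 10.1 TPM over homozygous libraries and 24.0 ± 2.88 TPM over wild-type libraries, and Cdk5 averaged 40.3 ± 0.413 TPM over homozygous libraries and 31.4 ± 0.875 TPM over wild-type libraries.

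Around the network, the genes of the proteins with which MYC activates, with which its antagonists repress, and which stabilise or destroy it were read as fixed lists. In young homozygous cells 10 of 15 MYC coactivator genes were called higher and 0 lower, with a median log2 change of 0.31 against 0.18 for all genes. Over all genes 38.4% were higher and 12.6% lower, so the counts of this and the next 3 lists stand near or above the share of all genes. Ep400, the chromatin remodeller, and Hcfc1, a MYC cofactor, had log2 changes of 0.92 and 0.77 (adjusted p = 0.000601 and 0.000781). Of 13 corepressor genes 6 were higher and 0 lower (median 0.20), led by Tgif1 (1.14), Arid4a (0.70) and Ncor1 (0.69). Of 14 PRC1.6 genes 7 were higher and 0 lower (median 0.20), with Cbx1 at 0.40, Rnf2 at 0.39 and Wdr5 at 0.29, smaller than the change of Mga itself. After median-of-ratios rescaling Cbx1 (0.18, adjusted p = 0.0831), Rnf2 (0.17, 0.129) and Wdr5 (0.07, 0.449) were not called. The call of Rnf2 ended without wild-type library 1 (adjusted p = 0.0521) or homozygous library 3 (0.0573), and Wdr5 without wild-type library 1 or 2 or homozygous library 2 or 3 (between 0.0907 and 0.123). Of 18 genes of MYC protein turnover 11 were higher and 0 lower (median 0.35). All 3 Pim kinase genes, whose products stabilise MYC, were among them. Pim3 averaged 56.2 ± 1.29 TPM in homozygous against 23.4 ± 1.29 TPM in wild-type cells (log2 change 1.23, adjusted p = 2.58e-05), Pim2 76.8 ± 3.43 TPM against 37.6 ± 2.90 TPM in wild-type cells (1.01) and Pim1 161 ± 8.87 TPM against 81.2 ± 10.6 TPM in wild-type cells (0.99).

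In the aged comparisons of CLL cells these lists held few calls. Few of all genes were called either, 3.54% against wild-type and 5.77% against non-CLL B cells. Against wild-type, 0 of 15 coactivator, 0 of 13 corepressor and 0 of 14 PRC1.6 genes were called by limma (1, 2 and 0 at an unadjusted p under 0.05), and of 18 turnover genes 1 was higher and 1 lower. Pim2 averaged 60.2 ± 39.6 TPM in CLL cells, against 17.2 ± 8.01 TPM in wild-type B cells (log2 change 1.59, adjusted p = 0.0497), a call lost without CLL library 5 (adjusted p = 0.0514). Ppp2r5a, a subunit of the phosphatase PP2A that acts on MYC, averaged 20.5 ± 5.92 TPM in CLL cells, against 55.2 ± 17.2 TPM in wild-type B cells (log2 change -1.38, adjusted p = 0.0351), a call lost without wild-type library 1 (0.123) or 3 (0.243). Quantile normalization ended the calls of Pim2 (0.232) and Ppp2r5a (0.085). So did leaving out both trend and robust estimation (0.0612 and 0.0514) and background subtraction (0.16 and 0.0552). The Pim2 call also ended with no filter on low values (0.0617) and at a minimum of 20 TPM (0.133). In non-CLL B cells both differed from wild-type the same way, at 58.3 ± 20.9 TPM for Pim2 (log2 change 1.73, adjusted p = 0.00222) and 29.2 ± 1.53 TPM for Ppp2r5a (-0.85, adjusted p = 0.021, lost without non-CLL library 4 or wild-type library 1 or 3, at 0.0526 to 0.12). Both calls in non-CLL B cells were also lost at a minimum of 20 TPM, under quantile normalization and after background subtraction (between 0.0626 and 0.158). Against non-CLL B cells, CLL cells had 0 calls by limma among all 4 of these lists, and 2 coactivator, 2 corepressor, 0 PRC1.6 and 1 turnover gene at an unadjusted p under 0.05. Between non-CLL B cells and wild-type 0 of 15 coactivator genes were called (1 at an unadjusted p under 0.05), 1 of 13 corepressor genes was higher and 2 lower, and 1 of 14 PRC1.6 genes was higher, where 55.8% of all genes were higher and 1.48% lower. The histone binding genes Rbbp4 and Rbbp7 were lower in non-CLL B cells than in wild-type, at log2 changes of -0.64 and -0.76 (adjusted p = 0.0303 and 0.0114). Rbbp4 lost its call without any 1 of 4 libraries (0.088 to 0.114), and both lost it after background subtraction (0.0838 and 0.0717).

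Known targets of MYC were read as 2 lists, of ribosome and nucleotide synthesis and of translation, metabolism and cycle. In young homozygous cells, where Myc was 3.23-fold higher, 7 of 30 target genes of ribosome and nucleotide synthesis were higher and 3 lower, with a median log2 change of 0.14 against 0.18 for all genes. Odc1, the first enzyme of polyamine synthesis, averaged 101 ± 12.7 TPM over homozygous libraries and 63.9 ± 3.84 TPM over wild-type libraries (log2 change 0.65, adjusted p = 0.0012), and Gnl3 and Nolc1, nucleolar proteins, rose by 0.57 and 0.47. Nolc1 was not called after rescaling (0.25, adjusted p = 0.0514), under quantile normalization (0.22, 0.0706) or against wild-type library 3 alone (0.0994). The nucleotide kinase genes Nme1 and Nme2 fell by 0.55 and 0.45, and Nop16 fell by 0.24. Nop16 lost its call when any 1 library other than wild-type library 3 was left out (adjusted p between 0.0577 and 0.137). Nme1 and Nme2 are near copies, so reads may be split between them. Of 29 tested target genes of translation, metabolism and cycle 8 were higher and 4 lower (median 0.04). The mitochondrial chaperones Hspd1 (0.95) and Hspe1 (0.60) and the transferrin receptor Tfrc (0.73) were higher. The translation inhibitor Eif4ebp1 (-0.83), lactate dehydrogenase Ldha (-0.47) and Phb (-0.39) were lower. Of 16 genes of cycling cells 0 were higher (1 at an unadjusted p under 0.05) and 3 lower. The called shares of the target lists, for higher genes, are under the 38.4% of all genes.

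Of the 30 ribosome and nucleotide targets, 2 were called higher in CLL cells than in wild-type, where 2.94% of all genes were called higher. Against non-CLL B cells 4 were, where 0.744% of all genes were called higher. Most of the rest had a positive sign with no call. Against wild-type 27 of 30 had a positive log2 change with a median of 0.35, where the 6505 genes with a mean of at least 20 TPM had a median of -0.06 and all genes tested one of 0.93; 2 were called higher and 0 lower. Nop56, a core protein of small nucleolar ribonucleoproteins, averaged 173 ± 41.3 TPM in CLL cells, against 74.7 ± 8.60 TPM in wild-type B cells (log2 change 1.17, adjusted p = 0.0308), and Ppan averaged 142 ± 39.7 TPM in CLL cells and 64.6 ± 16.2 TPM in wild-type cells (1.11, adjusted p = 0.0461). Each lost its call without CLL library 5 or wild-type library 1 or 3 (adjusted p between 0.0526 and 0.243), and under quantile normalization, with neither trend nor robust estimation and after background subtraction (0.0532 to 0.129). Against non-CLL B cells 27 of 30 were also positive, with a median of 0.58 against -0.05 for genes of at least 20 TPM and -0.77 for all genes tested; 4 were called higher and 0 lower. Mybbp1a averaged 255 ± 26.3 TPM in CLL cells, against 118 ± 38.9 TPM in non-CLL B cells (log2 change 1.17, adjusted p = 0.0199; 0.0863 without non-CLL library 6). Wdr43 averaged 340 ± 106 TPM, against 145 ± 68.3 TPM in non-CLL B cells (1.32, adjusted p = 0.0335), and Nop16 370 ± 128 TPM, against 171 ± 54.0 TPM in non-CLL B cells (1.10, adjusted p = 0.029). Wdr43 and Nop16 each lost their call when any 1 of 5 libraries was left out (adjusted p between 0.052 and 0.0949). Under quantile normalization and with neither trend nor robust estimation Mybbp1a, Wdr43 and Nop16 were not called (0.0558 to 0.142). Of the 30 translation, metabolism and cycle targets 1 was called higher against non-CLL B cells, the mitochondrial serine enzyme Shmt2 (log2 change 1.12, adjusted p = 0.0404, lost without any 1 of 6 of the 9 libraries at 0.0568 to 0.114 and with the number as a block at 0.0557), and 0 were called against wild-type by limma (5 at an unadjusted p under 0.05). Non-CLL B cells had 0 of the 30 ribosome and nucleotide targets higher than wild-type and 1 lower: Wdr43 (log2 change -1.05, adjusted p = 0.0444, lost without any 1 of 5 of the 7 libraries at 0.0518 to 0.137). Over all genes 55.8% were higher there and 1.48% lower. Genes of cycling cells had 0 limma calls of 16 in each of the 3 aged comparisons (at an unadjusted p under 0.05, 2 for CLL against wild-type, 1 for CLL against non-CLL and 2 for non-CLL against wild-type). CLL cells are in both comparisons, so their directions are not separate evidence. The targets were listed from general knowledge of MYC, and 28% and 32% of those with a promoter in the RefSeq table hold CACGTG there, against 8.09% of all genes. That base includes genes too low to be tested, which the target lists hardly hold. Of the genes tested in the young comparison that have a promoter listed, 1108 hold CACGTG and 8037 do not.

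Genes that MYC is known to repress did not move as 1 block. In young homozygous cells 2 of 11 tested were higher and 2 lower (median -0.02). Over all genes 38.4% were higher and 12.6% lower (median 0.18), so fewer of this list were higher. The 2 higher ones are growth inhibitors. Btg1 averaged 710 ± 73.3 TPM over homozygous libraries and 370 ± 21.4 TPM over wild-type libraries (log2 change 0.93, adjusted p = 0.000296) and Cdkn1b, which encodes p27, averaged 165 ± 24.7 TPM over homozygous libraries and 107 ± 4.36 TPM over wild-type libraries (0.61, adjusted p = 0.00227, and 0.0532 against wild-type library 3 alone). Aged CLL libraries held 62.7 ± 12.02 TPM of Cdkn1b, non-CLL libraries 63.8 ± 9.80 TPM and wild-type libraries 27.9 ± 20.6 TPM. Cdkn1b was called higher than wild-type both in CLL cells (log2 change 1.37, adjusted p = 0.0339; lost without CLL library 5 or wild-type library 2 or 3, at 0.051 to 0.125) and in non-CLL cells (1.40, adjusted p = 0.0137; 0.0568 without wild-type library 2). Both calls also ended at a minimum of 20 TPM, under quantile normalization and after background subtraction (adjusted p between 0.101 and 0.163). The call in CLL cells ended with neither trend nor robust estimation as well (0.0592). Btg1 was called higher in non-CLL B cells than in wild-type, with 1437 ± 457 TPM in non-CLL libraries and 669.6 ± 244 TPM in wild-type libraries (log2 change 1.10, adjusted p = 0.00874), but not at a minimum of 20 TPM (0.132), under quantile normalization (0.0889) or after background subtraction (0.0838). Of the 14 genes 7 were called higher in non-CLL B cells than in wild-type, below the 55.8% of all genes, and 0 were called by limma between CLL cells and non-CLL B cells (4 at an unadjusted p under 0.05, all lower in CLL cells). Those 4, Ndrg2, Arrdc4, Gas1 and Cebpa, average 5.64 to 12.9 TPM in non-CLL libraries, about their background of 7.16 to 9.24 TPM, and were named after their values were seen.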

How the data were processed

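RNA-seq libraries of splenic B cells were analysed from the TPM values that the authors deposited in 2 tables, young and aged. The submitters' processing notes name the build mm10 and the tools Bowtie2 2.3.4.1, MACS2 2.2.0 and STAR 2.4.0.1, with no assay beside them; how TPM was quantified, with which annotation and strandedness, is not given in the sources used here. Depth is unknown, so no counting interval is given. Left out were 25 and 26 names turned into dates (aged, young) and 887 young entries with no gene name, which hold 4.44% to 9.36% of TPM. The 12 chromatin samples are not analysed here. Groups come from sample titles, and every comparison stays within 1 table.

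For each of 4 comparisons, genes reaching 1 TPM in enough libraries to fill the smaller group were fitted as log2(TPM + 1) with limma 3.58.1 in R 4.3.3 (trend, robust, two-sided), on the libraries of the 2 groups, and adjusted over all genes tested. The fit was also run on simulated data, with independent normal noise of the same spread in both groups. Those data hold no difference in background between libraries, so they cannot show how background affects the aged calls. Fold is the log2 change as a ratio on this scale, which understates low genes. Alternatives were a pseudocount of 0.1, other filters, median-of-ratios rescaling, quantile normalization, library weights, background subtraction, all aged groups together, replicate blocks and leaving out libraries.

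Non-CLL and CLL libraries numbered 2, 4, 5 and 6 were taken as pairs: the series' design text says that both came from the same mice, and numbers and genotypes match, but no label states it per number. The correlations of their deviations were -0.02, -0.01, 0.06 and 0.21. Other numbers were taken to name libraries only.

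The genes and lists were chosen with earlier results of these data known. Named are the 10 genes, 4 relatives, up to 3 called genes per list and direction with the largest log2 change and a mean of at least 20 TPM, and the 5 genes per table most correlated with Myc. 1 gene that this rule names is not reported here.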

Additional observations from a re-analysis of the deposited data

Results flagged for a closer look

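Myc relative to its summed antagonists was 6.50 in CLL library 1, far from the other CLL libraries at 1.15 to 2.21. The gap to the next library, over the range of the group, passed Dixon's 95% limit for 5 libraries. Of 26 groups of values checked in this way 1 stood out, and chance alone flags about 1 in 20. The library has the highest Myc (770 TPM) and the lowest antagonist sum (119 TPM) of the CLL libraries, it is heterozygous, and no non-CLL library has its number. Without it the log2 change of Myc was 1.14 against wild-type (adjusted p = 0.019) and 1.54 against non-CLL B cells (adjusted p = 0.00348), called in both.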

How the results depend on the processing

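Of the log2 changes of the 10 genes, 543 of 638 alternative values kept both their direction and their side of the threshold. In the young comparison, 5 of the 10 genes were called, 3 after rescaling, 7 with library weights, 2 without wild-type libraries 1 and 2, and 3 to 6 when 1 library was left out. In CLL cells against wild-type 1 was called, and 0 at a minimum of 20 TPM, under quantile normalization, with neither trend nor robust estimation, after background subtraction, with the replicate block, and 0 to 1 when 1 library was left out. Between CLL cells and non-CLL B cells 1 was called, 0 under quantile normalization and with neither trend nor robust estimation, and 2 with heterozygous mice only, where Mycn was lower (log2 change -1.27, adjusted p = 0.021). In non-CLL B cells against wild-type 1 was called, 0 at a pseudocount of 0.1, at a minimum of 20 TPM, under quantile normalization and after background subtraction, 2 with rescaling, library weights or neither trend nor robust estimation, and 0 to 2 when 1 library was left out. The cause of these changes was not tested.

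Direction turned only for changes that were not called, apart from Mycn. Young Mxi1 and Mlx turned to -0.14 and -0.10 with rescaling and to -0.044 and -0.13 with quantile normalization. In CLL cells against wild-type, Mxd3 turned to -0.26 (quantile) and -0.30 (background subtraction), Mga to -0.10 (library weights) and -0.29 (replicate block), and Mxd4 to -0.19 (replicate block). In CLL cells against non-CLL B cells, rescaling gave Max 0.011 and Mlx 0.0096, quantile normalization Mycn 0.069, Mxi1 0.31 and Mlx 0.29, library weights Max 0.040 and Mnt -0.16, background subtraction Mxi1 0.30 and Mlx 0.29, the replicate block Mnt -0.053 and Mlx 0.0075, and heterozygous mice only Mnt -0.14. In non-CLL B cells against wild-type, quantile normalization gave Mycn -0.27, Mxd1 -0.19, Mxd3 -1.30, Mxi1 -0.14 and Mlx -0.13, library weights Mga -0.17, and background subtraction Mxd1 -0.41, Mxd3 -1.73, Mxi1 -0.14, Mga -0.15 and Mlx -0.17. With 1 library left out, changes that turned ranged from -0.14 to 0.20 for Mxi1 in young cells and from -0.15 to 0.24 for Mga in CLL cells against wild-type. Between CLL cells and non-CLL B cells they ranged from -0.19 to 0.11 for Max, -0.11 to 0.50 for Mxd3, -0.22 to 0.035 for Mxi1, -0.10 to 0.20 for Mnt, -0.045 to 0.20 for Mga and -0.19 to 0.039 for Mlx. In non-CLL B cells against wild-type they ranged from -0.11 to 0.30 for Mxd1 and -0.20 to 0.19 for Mga.

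Over all genes, calls numbered 6237 in the young comparison (4002 at a minimum of 20 TPM, 2858 without wild-type libraries 1 and 2), 751 in CLL cells against wild-type (2 with the replicate block to 12299 with library weights, and 345 to 8222 with 1 library left out), 1287 in CLL cells against non-CLL B cells (156 with neither trend nor robust estimation to 11705 with library weights, 325 to 11118 with 1 library left out) and 12681 in non-CLL B cells against wild-type (39 under quantile normalization, 43 after background subtraction, 83 at a minimum of 20 TPM). Where a library was left out of a group of 3, the fit pooled the spread.

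Young libraries were not taken as pairs by number. For equal numbers the r of deviations was -0.05, 0.28 and 0.33. Homozygous library 1 correlates best with wild-type library 2, and homozygous libraries 2 and 3 with the wild-type library of their own number. These few values cannot settle whether young numbers pair libraries. With the replicate block 4 of the 10 genes and 6631 genes in all were called. The numbers that CLL and wild-type libraries share name different mice (r -0.07 and 0.06), and the replicate block gave Myc a log2 change of 1.48 (adjusted p = 0.15). Between CLL cells and non-CLL B cells, the replicate block by number, with Myc at 1.54, changed no call of the 10 genes. Non-CLL and wild-type libraries come from different mice, so no block was fitted there. TPM keep no depth, low genes of the aged libraries lie near the background, and 3 to 5 libraries a group leave wide intervals.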
